A study of Mus musculus with 9 samples.

Results

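The epididymal lipocalins are 9 genes, Lcn2, Lcn5, Lcn6, Lcn8, Lcn9, Lcn10, Lcn12, Ptgds and Apod, taken by symbol from a table of 24346 genes measured by RNA-seq, and all 9 were found. The tissue was mouse IS-caput epididymis, in which the initial segment (IS) had been dissected together with the caput, from animals 14 weeks old. There were 3 libraries each of Nicol+/- (written Nicole+/- in the labels), Nicol-/- and Ros1-/- mice. Nicol encodes a small secreted protein that forms a complex with NELL2 from the testis, and ROS1 is the receptor of this lumicrine signal on the IS epithelium. The Nicol allele is a CRISPR/Cas9 deletion on a B6D2F1 background, and the controls carry a single deleted copy of it. No Ros1+/- library was included, so both knockouts were compared with the same Nicol+/- libraries. The background and allele of the Ros1-/- mice and the number of animals behind each library were not found in the labels or methods, so p-values measure only the spread between these libraries.

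Lipocalins are small secreted proteins whose barrel-shaped fold holds a hydrophobic ligand, such as a retinoid, a fatty acid or a siderophore. Several of them are secreted by the epididymal epithelium into the fluid in which spermatozoa mature, each in its own stretch of the duct. In the mouse, Lcn8 (mEP17) is known as a product of the initial segment and Lcn5 (mE-RABP, the epididymal retinoic acid-binding protein) as a product of the caput beyond it. Lcn6, Lcn9, Lcn10 and Lcn12 belong to the same genomic cluster, Ptgds is the lipocalin-type prostaglandin D2 synthase, Lcn2 (NGAL) binds iron-loaded siderophores and Apod is apolipoprotein D, a carrier of arachidonic acid and other lipids.

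Of the 9 lipocalins, Lcn8, Lcn9, Lcn10 and Lcn2 were lower in both knockouts. Lcn8 fell from among the most abundant transcripts of the tissue to a few FPKM, Lcn9 was listed at 0 in every Ros1-/- library, Lcn10 fell 12.3-fold in Nicol-/- and 18.5-fold in Ros1-/- and Lcn2 by 2.54-fold in Nicol-/- and 3.01-fold in Ros1-/-. Lcn5, Lcn6, Lcn12 and Ptgds did not pass the test in either knockout, and Apod was called higher in Ros1-/-, a call that 5 of 20 alternative settings ended, while the direct comparison of the knockouts did not call it (limma adjusted p = 0.272). Expression is given as FPKM, reads per unit of transcript length and of library depth, as scaled between libraries by the authors. Differences are on the log2(FPKM + 1) scale, which understates the change of genes near 0, and a gene was called at a limma p-value under 0.05 after Benjamini-Hochberg adjustment over 13647 tested genes. All 9 members passed the filter of at least 1 FPKM in at least 3 of 9 libraries. In Nicol-/- 4 of the 9 were called lower and 0 higher, beside 11.9% and 8.95% of all tested genes, and at an unadjusted p under 0.05 there was 1 higher, Lcn12. In Ros1-/- 4 were called lower and 1 higher, beside 13.3% and 9.52%. The median difference of the 9 was -0.33 in Nicol-/- and -0.43 in Ros1-/-, against 0.0045 and 0.014 over all tested genes.

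**Figure D1:**
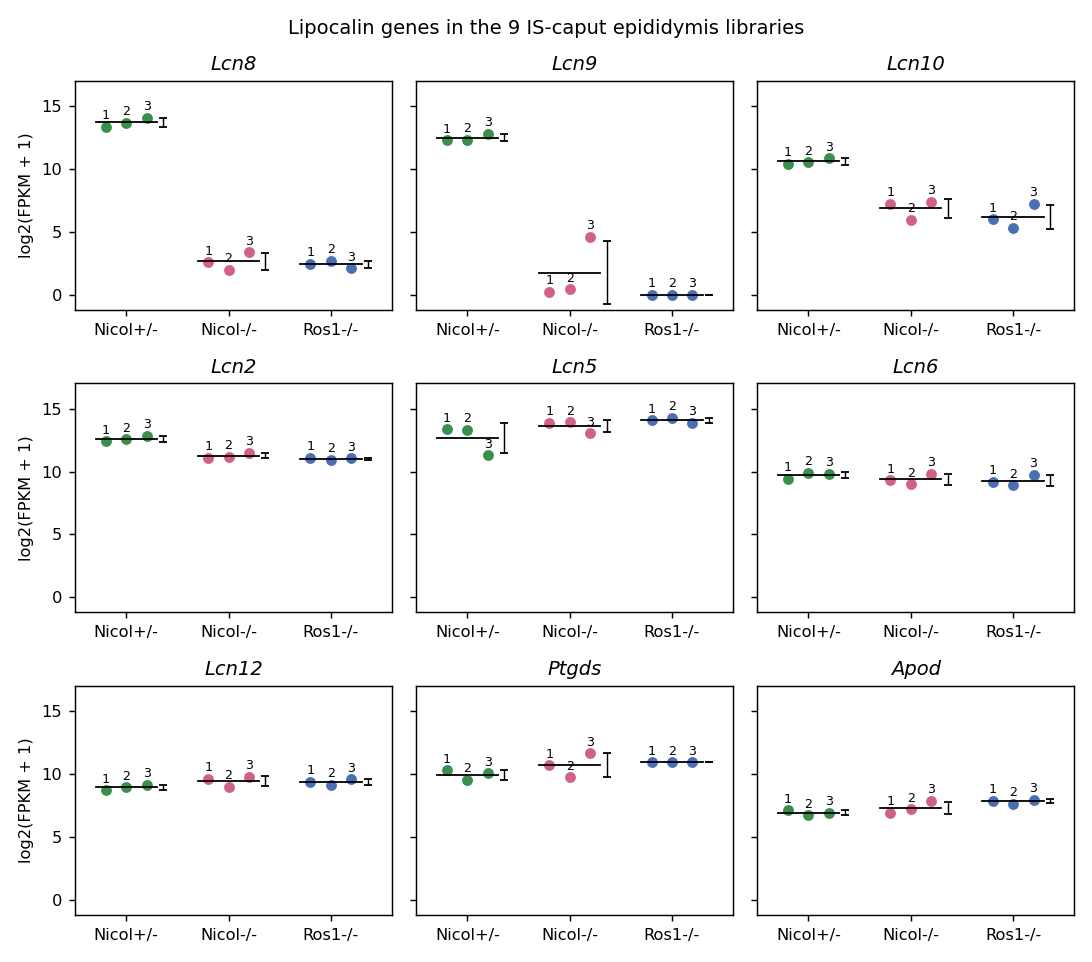
Each panel plots log2(FPKM + 1) of a lipocalin gene in the 3 libraries of each genotype, numbered by replicate, with the group mean as a line and the SD beside it. The 4 genes Lcn8, Lcn9, Lcn10 and Lcn2 show no overlap between Nicol+/- and either knockout, and the Lcn9 value of Nicol-/- replicate 3 (23.8 FPKM) lies apart from the other knockout values of that gene.

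Estimated depth ran from 8189637 to 16595544 reads per library. The ribosomal RNA precursor Rn45s was 1.30 above Nicol+/- in Nicol-/- (limma adjusted p = 0.0662) and 3.22 above it in Ros1-/- (adjusted p = 0.0011). The part of this difference in the other values was not tested. Lcn8 in the knockouts rested on 12 to 66 estimated reads and Lcn9 on 0 to 238, while the other 7 genes had at least 508 in every library. Gm1673, the gene of NICOL, was at 6.05 to 9.09 FPKM in Nicol+/-, listed at 0 in all 3 Nicol-/- libraries, and at 16.6 to 19.6 FPKM in Ros1-/-. Ros1 was at 40.7 to 48.0 FPKM in Nicol+/-, 16.8 to 24.7 in Nicol-/- and 8.06 to 9.32 in Ros1-/-, so transcript reads of the gene remained in the knockout. In Nicol-/- Ros1 was called lower (-1.09, limma adjusted p = 0.00067), whereas the paper's RT-PCR, a different measure, found its expression there not compromised. All 9 markers of the initial segment epithelium were lower in both knockouts. Their summed level was 7141 to 11473 FPKM in Nicol+/-, 73.2 to 125 in Nicol-/- and 53.7 to 55.3 in Ros1-/-. The 9 include Ros1, the gene disrupted in Ros1-/-. They also include Etv4 and Etv5, which the paper had reported as lower in Nicol-/- by RNA-seq, and Ovch2 and Adam28, reported as lower there in protein. The count is thus not independent of the alleles or of the paper's findings. The 6 caput markers were mixed (3 lower and 2 higher in Nicol-/-, 2 lower and 1 higher in Ros1-/-). Their sums overlapped, at 40368 to 54163, 44573 to 51872 and 45228 to 51261 FPKM, but were mostly Gpx5 (means of 31722, 27453 and 30064). Under these sums Cst11 was lower (5352, 490 and 272) and Ces5a higher (424, 880 and 873), called in both knockouts. In bulk tissue, fewer cells of a type and less RNA per cell cannot be told apart.

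Lcn8, Lcn5, Lcn6 and Lcn10 lie together on chromosome 2 of mm10 (GRCm38) and are read from the same strand. Lcn8 spans chr2:25653118-25656217, Lcn5 begins 1714 bases beyond its end at chr2:25657932-25662230, Lcn6 follows at chr2:25676638-25681608, and Lcn10 begins 1117 bases after Lcn6 at chr2:25682726-25686081. Lcn9 (chr2:25823088-25825546) lies 137006 bases past Lcn10, and Ptgds (chr2:25466709-25470110) and Lcn12 (chr2:25490845-25494061) lie before the block on the opposite strand, so that these 7 genes span 358838 bases. Lcn2 (chr2:32384637-32387739) is elsewhere on the chromosome and Apod (chr16:31296192-31314808) is on chromosome 16. In the GENCODE annotation of this build, 0 of the 9 gene spans overlapped another annotated gene.

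The 250 bases before a transcript start of the 4 genes that fell, and of Lcn5, which lies next to Lcn8, are shown so that the sequences of genes that fell together can be set beside that of a neighbour that was not called. They come from RefSeq (GRCm38.p6) and are written 5′ to 3′ on the gene's own strand. The start used in that sequence table is the 5′ end of the gene span given above for Lcn2, Lcn8, Lcn10 and Apod. For the other 5 genes it lies inside the span, by 20 bases in Lcn5, 65 in Lcn9, 148 in Lcn6, 150 in Lcn12 and 361 in Ptgds, so that the Lcn9 match marked here falls within its gene span. Capitals mark matches, on either strand, to AGGAAG (the ETS core with flanking bases) and AGAACA (part of the site bound by the androgen receptor). ETS factors, some of which act downstream of ERK, bind that core. The core with other flanks was not searched for, so an unmarked window may still hold it. The windows are chr2:25652868-25653117, chr2:25657702-25657951, chr2:25682476-25682725 and chr2:25822903-25823152 on the plus strand and chr2:32387740-32387989 on the minus strand.
Lcn8: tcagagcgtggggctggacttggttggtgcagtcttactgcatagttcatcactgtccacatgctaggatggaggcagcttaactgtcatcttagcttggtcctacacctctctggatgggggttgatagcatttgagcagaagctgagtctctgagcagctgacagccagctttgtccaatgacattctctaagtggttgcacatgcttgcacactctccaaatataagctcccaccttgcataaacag
Lcn5: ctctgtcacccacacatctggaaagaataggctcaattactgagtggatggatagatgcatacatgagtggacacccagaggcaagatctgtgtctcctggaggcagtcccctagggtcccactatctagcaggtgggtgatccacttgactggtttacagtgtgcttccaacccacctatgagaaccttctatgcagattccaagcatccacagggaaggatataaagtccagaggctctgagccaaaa
Lcn10: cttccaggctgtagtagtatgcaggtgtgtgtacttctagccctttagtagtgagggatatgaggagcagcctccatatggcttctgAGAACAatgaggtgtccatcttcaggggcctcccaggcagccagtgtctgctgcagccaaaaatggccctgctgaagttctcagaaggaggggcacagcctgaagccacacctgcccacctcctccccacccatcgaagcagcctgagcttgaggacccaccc
Lcn9: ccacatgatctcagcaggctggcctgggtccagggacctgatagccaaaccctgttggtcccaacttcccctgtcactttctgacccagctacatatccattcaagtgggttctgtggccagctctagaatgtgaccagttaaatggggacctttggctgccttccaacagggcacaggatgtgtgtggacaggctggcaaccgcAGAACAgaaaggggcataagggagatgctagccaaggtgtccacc
Lcn2: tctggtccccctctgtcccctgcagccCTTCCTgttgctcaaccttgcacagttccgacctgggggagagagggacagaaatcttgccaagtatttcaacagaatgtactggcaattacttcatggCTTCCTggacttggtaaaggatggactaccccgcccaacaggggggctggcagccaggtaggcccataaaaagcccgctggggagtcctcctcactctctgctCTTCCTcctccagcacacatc

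No match to either motif occurred in the 300-base windows (250 before that transcript start to 50 after it) of Lcn8, Lcn5 and Ptgds. AGGAAG was found in 2 of the 9 windows, with 3 matches in Lcn2, which begin 223, 124 and 21 bases before its start, and a single match in Apod. In all 32851 mouse promoter windows of this length, 35.4% held it. AGAACA was found in 4 of the 9 (Lcn6, Lcn9, Lcn10 and Lcn12), and 19% of all windows held it. A match is a run of letters, not a measured site. The adjacent Lcn8 and Lcn5 both held neither motif, and the adjacent Lcn6 and Lcn10 both held AGAACA.

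Lcn8 had the highest mean of the 9 in Nicol+/-. Its FPKM was 10553, 13223 and 17504 in Nicol+/-, 5.09, 2.99 and 9.41 in Nicol-/-, and 4.58, 5.53 and 3.34 in Ros1-/-. It ranked 3 or 4 of all genes in every control library and 6944 to 10814 in the knockout libraries, with no overlap. The ratio of means was 2359-fold for Nicol-/- and 3070-fold for Ros1-/-. On the log2 scale the difference was -11.06 ± 0.32 (SE, n = 3; limma adjusted p = 1.14e-07) and -11.28 ± 0.32 (adjusted p = 9.91e-08).

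Lcn9 had 5026, 5153 and 7136 FPKM in Nicol+/-. In Nicol-/- it was at 0.170, 0.350 and 23.8 FPKM, which correspond to 1, 2 and 238 estimated reads, and in Ros1-/- it was listed at 0 in all 3 libraries. The knockout values lay below the controls throughout, and Nicol-/- replicate 3 stood apart from the other 2. In that library Lcn9 was at 0.412% of the Nicol+/- mean, against 0.0029% and 0.0061% in the others. The difference in Nicol-/- was -10.71 ± 0.95 (SE, n = 3; limma adjusted p = 9.72e-05), and without replicate 3 it was -12.15 (adjusted p = 1.36e-09). The fall in Ros1-/- was called (adjusted p = 3.02e-05), and no fold is given against values of 0. By their median, other IS transcripts were also least reduced in Nicol-/- replicate 3: that of the 9 IS markers was 2.62% of the Nicol+/- mean there, 0.904% and 0.652% in replicates 1 and 2, and 0.312% to 1.23% in Ros1-/-. Their part in the Lcn9 value was not tested.

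Lcn10 had 1356, 1482 and 1872 FPKM in Nicol+/-, 150, 62.3 and 170.0 in Nicol-/-, and 63.3, 39.9 and 151 in Ros1-/-. The groups did not overlap, and the knockout libraries retained 2.54% to 10.8% of the control mean, a far larger remainder than that of Lcn8 or Lcn9. Its difference was -3.72 ± 0.49 in Nicol-/- (SE, n = 3; limma adjusted p = 0.00097) and -4.40 ± 0.49 in Ros1-/- (adjusted p = 0.0003).

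Lcn2, the siderophore-binding lipocalin, had 5399, 6054 and 7283 FPKM in Nicol+/-, 2218, 2301 and 2852 in Nicol-/-, and 2178, 1939 and 2114 in Ros1-/-. Every knockout library was below every control. The difference was -1.34 ± 0.16 in Nicol-/- (SE, n = 3; limma adjusted p = 0.00063) and -1.58 ± 0.16 in Ros1-/- (adjusted p = 0.00019). Even after this fall Lcn2 ranked between 27 and 55 of all genes in the knockout libraries. Neutrophils also make Lcn2, and the 9 neutrophil markers in the table summed to 0.700 to 1.39 FPKM in Nicol+/-, 0.316 to 21.1 in Nicol-/- and 0.432 to 1.03 in Ros1-/-, with 0 of them passing the filter. Between 2 and 7 of the 9 were listed at 0 in each library.

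**Figure D2:**
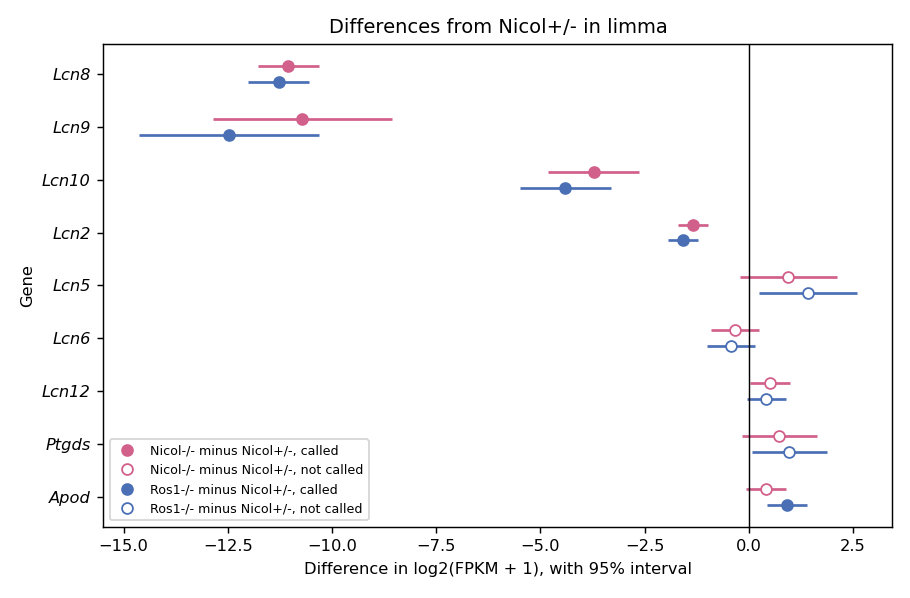
The horizontal axis gives the difference of each knockout from Nicol+/- in log2(FPKM + 1) with its 95% interval from limma (n = 3 per group), and filled points mark genes called at an adjusted p under 0.05. The intervals of Lcn8, Lcn9, Lcn10 and Lcn2 lie below 0 in both knockouts, that of Lcn6 spans 0, and the Lcn9 point of Ros1-/- rests on values of 0 and is no measure of size.

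Lcn5, the retinoic acid-binding lipocalin next to Lcn8, was the most abundant of the 9 in both knockouts. Its FPKM was 10498, 10201 and 2533 in Nicol+/-, 14865, 15605 and 8433 in Nicol-/-, and 17137, 19977 and 15064 in Ros1-/-. Nicol+/- replicate 3 was at 32.7% of the control mean, far below the other controls, the Nicol-/- libraries overlapped the controls and the Ros1-/- libraries did not. Neither difference passed the test, at 0.95 ± 0.52 in Nicol-/- (95% interval -0.22 to 2.12; limma adjusted p = 0.221) and 1.42 ± 0.52 in Ros1-/- (0.25 to 2.58; adjusted p = 0.0792). Without Nicol+/- replicate 3 the differences were 0.27 (adjusted p = 0.599) and 0.74 (adjusted p = 0.144). The replicate number as a block over the 9 libraries (adjusted p = 0.0285), and replicate 3 of both Nicol groups left out together (0.74, adjusted p = 0.0425), each brought the rise in Ros1-/- past the threshold. Nicol+/- replicate 3 had the highest summed IS markers of the controls (11473 FPKM, against 7141 and 7583). It also held the highest Lcn8, Lcn9, Lcn10 and Lcn2 of the controls. Its caput markers summed to 53320 FPKM, 36736 of it Gpx5, against 40368 and 54163 in the other controls. Of the other caput markers Clu was lowest there (5155 against 9776 and 10123), while Crisp1, Adam7 and Cst11 were highest there. The part of these values in the Lcn5 level was not tested.

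The neighbouring pairs moved apart. Lcn8 was 1.01, 1.30 and 6.91 times Lcn5 in the controls, while Lcn5 was 896 to 5211 times Lcn8 in Nicol-/- and 3613 to 4510 times in Ros1-/-. Lcn10 was 1.57 to 2.1 times Lcn6 in Nicol+/-, and Lcn6 was 4.27 to 8.18 times Lcn10 in Nicol-/- and 5.61 to 11.9 times in Ros1-/-. In both pairs the order of the 2 genes was therefore opposite in every knockout library to that in every control library.

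Lcn6, described in human on the surface of spermatozoa, had 692, 944 and 893 FPKM in Nicol+/-, 640.0, 510 and 896 in Nicol-/-, and 589, 475 and 848 in Ros1-/-. All 3 groups overlapped. The difference was -0.33 ± 0.25 in Nicol-/- (95% interval -0.90 to 0.24; limma adjusted p = 0.380) and -0.43 ± 0.25 in Ros1-/- (-1.0 to 0.14; adjusted p = 0.25). A fall as large as that of Lcn10 lay outside both intervals.

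Lcn12 had 422, 498 and 570 FPKM in Nicol+/-, 780, 500.2 and 873 in Nicol-/-, and 661, 569.7 and 766 in Ros1-/-. Replicate 2 of Nicol-/- lay among the controls, and the lowest Ros1-/- library (569.74) was level with the highest control (569.7). The difference was 0.50 ± 0.21 in Nicol-/- (limma adjusted p = 0.124) and 0.42 ± 0.21 in Ros1-/- (adjusted p = 0.183). Leaving out Nicol-/- replicate 2 brought Lcn12 (0.74, adjusted p = 0.021) and Ptgds (1.20, adjusted p = 0.0295) past the threshold in Nicol-/-.

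Ptgds, the prostaglandin D2 synthase of the family, had 1247, 735 and 1059 FPKM in Nicol+/-, 1641, 850.0 and 3174 in Nicol-/-, and 1939, 1936 and 1957 in Ros1-/-. The Nicol-/- libraries spread over 3.73-fold and overlapped the controls, whereas those of Ros1-/- lay close together and above every control. The difference was 0.73 ± 0.40 in Nicol-/- (limma adjusted p = 0.224) and 0.97 ± 0.40 in Ros1-/- (95% interval 0.07 to 1.88; adjusted p = 0.113). In a fit of the 6 libraries compared, which leaves out the spread of Nicol-/-, Ptgds was called higher in Ros1-/- (adjusted p = 0.0128, and 0.0188 with the replicate number as a block). Of the 20 alternative settings, 4 called Ptgds higher in Ros1-/-, these fits included. The highest Ptgds value was in Nicol-/- replicate 3, and markers of other cells were read in that library. Its ciliated efferent duct sum was the highest, at 89.1 FPKM against 19.7 to 44.2 in the other libraries. Its germ cell sum of 639 lay within the 124 to 731 of the others. Its macrophage sum was the highest, 264 FPKM against 117 to 230, but 92.2 of it was Cd68. Without Cd68 it was 172, inside the range of 88.6 to 188 of the others, and the macrophage gene Cx3cr1 was at its lowest there (3.54 FPKM). The part of these cells in the Ptgds value was not tested.

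Apod, the lipid carrier, had 138, 105 and 119 FPKM in Nicol+/-, 120.1, 145 and 230.4 in Nicol-/-, and 236, 201 and 243 in Ros1-/-. The Ros1-/- libraries lay above every control, and the Nicol-/- libraries overlapped them. It was called higher in Ros1-/- (0.91 ± 0.21, SE, n = 3, 1.88-fold on the means; limma adjusted p = 0.0163) and not in Nicol-/- (0.40 ± 0.21, 95% interval -0.08 to 0.89; adjusted p = 0.208). Leaving out Nicol+/- replicate 2 or 3 or Ros1-/- replicate 1 or 3 ended the call in Ros1-/-, with adjusted p between 0.052 and 0.0608, as did testing every gene without the filter (0.0677).

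The direct comparison of Ros1-/- with Nicol-/- called 0 of the 9 members, beside 1.15% of tested genes lower and 0.403% higher. At an unadjusted limma p under 0.05, 1 of the 9 differed, which was Apod (0.50 ± 0.21, 95% interval 0.02 to 0.99, adjusted p = 0.272). Without Nicol-/- replicate 3 the Apod difference was 0.77 (adjusted p = 0.0398). The other intervals were -0.60 to 0.13 for Lcn2, -0.96 to 0.50 for Lcn8, -1.77 to 0.42 for Lcn10, -0.70 to 1.64 for Lcn5 and -3.91 to 0.39 for Lcn9. For Lcn9 and Lcn10 these intervals leave room for differences of several fold between the knockouts.

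The order of the 9 levels, which FPKM gives per transcript length, changed with the genotype. By mean FPKM in Nicol+/- it was Lcn8 (13760.1 ± 3507, SD, n = 3), Lcn5 (7744 ± 4515), Lcn2 (6245 ± 957), Lcn9 (5772 ± 1183), Lcn10 (1569.6 ± 269), Ptgds (1014 ± 259), Lcn6 (843 ± 133), Lcn12 (496 ± 74.1) and Apod (121 ± 16.5). The ranges of Lcn5 and Lcn2, of Lcn2 and Lcn9, and of Ptgds and Lcn6 overlapped, and the other neighbours in this order did not. In Nicol-/- Lcn5 (12968 ± 3945) was followed by Lcn2, Ptgds, Lcn12, Lcn6, Apod, Lcn10, Lcn9 and Lcn8, and the breaks without overlap came after Lcn5, Lcn6 and Lcn10. In Ros1-/- Lcn5 (17392 ± 2466) was again first and Lcn2 second, Lcn8 and Lcn9 were last, and only Lcn2 with Ptgds and Lcn12 with Lcn6 overlapped.

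Together the 9 genes took 2.02% to 2.1% of the summed normalized count in Nicol+/-, 1.0% to 1.13% in Nicol-/- and 1.10% to 1.32% in Ros1-/-. The means were 2.06% ± 0.043 (SD, n = 3), 1.08% ± 0.072 and 1.22% ± 0.115. Each knockout lay wholly below the controls, and the exact two-sided permutation test gave p = 0.1 for both, the smallest that 3 against 3 allows (0.15 after Benjamini-Hochberg adjustment over 3 comparisons). Between the knockouts the same exact permutation test gave p = 0.3. Lcn5 made up 0.395% ± 0.234 of the control libraries, 0.681% ± 0.201 of Nicol-/- and 0.862% ± 0.136 of Ros1-/-. With Lcn8 and Lcn9 left out, which were chosen because they fell most, the other 7 genes held 1.09%, 1.08% and 1.22%, given here as a description with no test.

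**Figure D3:**
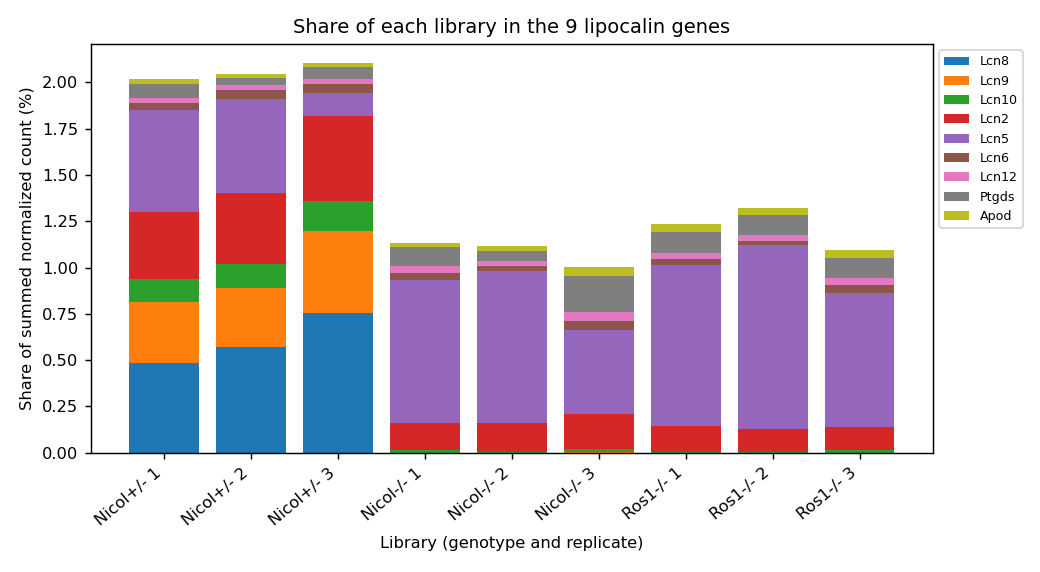
Bars give the percentage of each library's summed normalized count held by the 9 lipocalin genes, stacked by gene, for the 3 libraries of each genotype. The Lcn8 and Lcn9 segments seen in the Nicol+/- bars are too small to see in the knockout bars, where Lcn5 is the tallest segment of a total of 1.0% to 1.32%.

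Within 250 kb of the cluster, 34 other genes were tested, including Obp2b, which passed the filter only through its Nicol+/- libraries. In Nicol-/- 8 were lower and 3 higher, beside 11.9% and 8.95% of all tested genes, with a median difference of 0.067. In Ros1-/- 6 were lower and 6 higher, beside 13.3% and 9.52%, with a median of 0.116. The largest rises were those of Kcnt1 in Nicol-/- (0.65, limma adjusted p = 0.0176) and Ccdc183 in Ros1-/- (1.14, adjusted p = 0.034). No fall among the 34 came near those of Lcn8 and Lcn9, the lowest being that of Obp2a at -2.44 in Nicol-/- and -1.94 in Ros1-/-. Obp2a, an odorant-binding lipocalin on the far side of Lcn10, had 49.8, 39.1 and 63.6 FPKM in Nicol+/-, 9.36, 4.38 and 13.8 in Nicol-/-, and 9.85, 10.2 and 18 in Ros1-/-, with limma adjusted p of 0.002 and 0.0054. Bmyc, a relative of Myc just beyond it, had a mean of 528 FPKM in Nicol+/-, 212 in Nicol-/- and 233 in Ros1-/- (adjusted p = 0.0018 and 0.0025). Fcna, the gene of ficolin A before Lcn8, had 28.7, 14.8 and 17.5 FPKM (adjusted p = 0.0035 and 0.0125). Around Lcn2, 2 of 16 other tested genes were lower and 1 higher in each knockout.

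**Figure D4:**
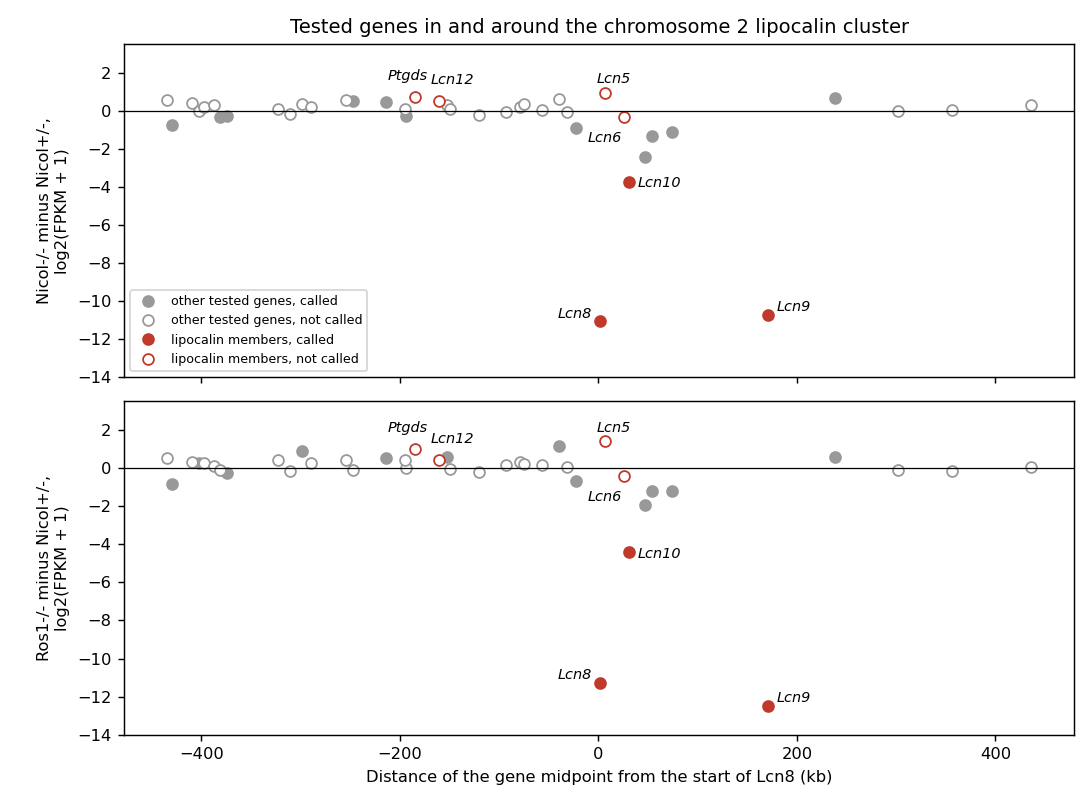
Each point is a tested gene within 250 kb of the cluster, placed by the distance of its midpoint from the start of Lcn8 (kb) and by its difference from Nicol+/- in log2(FPKM + 1), for Nicol-/- above and Ros1-/- below, with filled points for called genes. Lcn8 and Lcn9 lie below -10 in both panels while Lcn5 and Lcn6, between Lcn8 and Lcn10, are not called.

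Of 18 genes of the list of other lipocalins found in the table, 6 passed the filter, and 3 of them were lower in Nicol-/- and 0 higher, while 4 were lower and 1 higher in Ros1-/-. For this list and those below, the shares of all tested genes in Nicol-/- were 11.9% lower and 8.95% higher. In Ros1-/- they were 13.3% and 9.52%. Obp2a, Obp2b and Mup4 were lower in both knockouts. Mup4, of the major urinary proteins, had 8.29, 10.4 and 14.2 FPKM in Nicol+/-, 3.37, 1.98 and 1.98 in Nicol-/-, and 3.13, 3.07 and 3.04 in Ros1-/- (limma adjusted p = 0.00036 and 0.00077). Obp2b was at 1.13 to 1.77 FPKM in Nicol+/- and 0 to 0.362 in the knockouts. It passed the filter only through its Nicol+/- libraries, so its call adds no support to these counts. Mup6, which the list does not hold and which was added after its values were seen, had 25.8, 22.1 and 38.2 FPKM in Nicol+/-, 2.28, 1.01 and 1.34 in Nicol-/-, and 0.397, 0.402 and 1.4 in Ros1-/- (adjusted p = 4.39e-05 and 1.40e-05). It was the 1 gene of 15 further Mup genes in the table that passed the filter. C8g, a subunit of complement C8, went the other way in Ros1-/- (8.62 ± 1.09 to 13.3 ± 0.215 FPKM, SD, n = 3; adjusted p = 0.0042). Obp2a and Obp2b, and the Mup genes, have close paralogs, and how reads with several matches were counted is not given, so their levels are uncertain.

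Receptors that take up lipocalins were measured as a separate group. In Nicol-/- 3 of the 6 tested were higher and 0 lower, which were Lrp2 (megalin; 1.73 ± 0.291 to 3.33 ± 0.232 FPKM, SD, n = 3; limma adjusted p = 0.0037), Stra6, the receptor of retinol-binding protein (7.39 ± 1.76 to 23.7 ± 5.44; adjusted p = 0.002), and Lrp1 (14.7 ± 2.48 to 19.9 ± 1.42; adjusted p = 0.038). In Ros1-/- 1 was higher and 1 lower, the latter Lrp1 at 10.9 ± 1.03 FPKM (adjusted p = 0.0463). Directly compared, 2 of the 6 were lower in Ros1-/- than in Nicol-/-, beside 1.15% of all tested genes.

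Among 16 tested genes of prostaglandin synthesis and response, Nicol-/- had 1 lower and 2 higher, and Ros1-/- had 3 lower and 2 higher. Abcc4, an exporter of prostaglandins, had 17.9, 17.1 and 24.7 FPKM in Nicol+/-, 2.29, 2.31 and 3.75 in Nicol-/-, and 1.47, 1.79 and 1.5 in Ros1-/- (limma adjusted p = 2.45e-05 and 5.86e-06). Ptgs1, a cyclooxygenase that acts before Ptgds, rose from 29.9 ± 3.34 FPKM (SD, n = 3) to 49.6 ± 2.47 in Nicol-/- and 47.4 ± 1.45 in Ros1-/- (adjusted p = 0.00064 and 0.00091). Ptges, a prostaglandin E synthase, was higher in Nicol-/- (10.7 ± 1.18 to 14.3 ± 0.709; adjusted p = 0.0184).

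Genes linked with Lcn2 were counted in the same way. Of 6 tested acute-phase and NF-kB response genes 0 were lower in either knockout and 1, the NF-kB inhibitor gene Nfkbia, was higher in Nicol-/- (31.1 ± 2.68 to 43.1 ± 3.24 FPKM, SD, n = 3; limma adjusted p = 0.007), with 0 called in Ros1-/-, where Nfkbia and Nfkbiz had an unadjusted p under 0.05. Of 8 tested genes of siderophore and iron handling 1 was lower in Nicol-/- and 2 in Ros1-/-. Trf, transferrin, which carries iron in serum, fell in both, from 101.2, 116 and 87.9 FPKM in Nicol+/- to 15.3, 15.7 and 26.2 in Nicol-/- and 14.9, 15.6 and 18.9 in Ros1-/- (adjusted p = 6e-05 and 3.14e-05).

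The 3 genes with profiles over the 9 libraries most like that of each member, by root mean square difference of log2(FPKM + 1) centred on Nicol+/-, were found among tested genes with a mean of at least 5 FPKM. For Lcn8 they were Cst12 (1.03), Lcn9 (1.16) and Adam28 (1.33), and for Lcn9 they were Lcn8 (1.16), Cst12 (1.88) and Adam28 (2.13). These distances were larger than those of every other member. Cst12, a cystatin, had a mean of 2641 FPKM in Nicol+/-, 0.439 in Nicol-/- and 2.36 in Ros1-/-. Lcn10 was nearest to H2-DMb2 (0.430), Mup6 (0.450) and Bpi (0.488), and Lcn2 to Sox13 (0.0994), Spred1 (0.120) and Fut8 (0.130). Those nearest to Lcn5 were Gm15056 (0.182), 1700018G05Rik (0.183) and Mbnl3 (0.184). The distances of Lcn6 (Comtd1, Fam20c and Cd63), Lcn12 (Shf, Dnase2a and Tspan17), Ptgds (Cyba, Defb45 and Mrap2) and Apod (Dpp7, Fam213a and Tmsb10) ran from 0.122 to 0.335. Among these neighbours in profile, a member of the 9 was found only for Lcn8 and Lcn9.

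Markers of other cell types were read in the same libraries. In Nicol-/- the called numbers, lower and higher, were 1 and 0 of 4 basal cell genes, 1 and 3 of 5 clear cell, 1 and 6 of 7 smooth muscle, 4 and 0 of 7 endothelial, 1 and 1 of 7 fibroblast and 1 and 0 of 7 macrophage genes. In Ros1-/- they were 2 and 0, 1 and 3, 1 and 0, 6 and 0, 1 and 0 and 0 and 0. Germ cell and sperm genes were higher for 4 of 7 in Nicol-/- and 5 of 7 in Ros1-/-, with sums of 124 to 173 FPKM in Nicol+/-, 263 to 639 in Nicol-/- and 301 to 731 in Ros1-/-. Ciliated efferent duct genes were higher for 4 of 4 in Nicol-/- and 0 in Ros1-/-, and the single adipocyte gene tested was called in neither. The part of these cells in the levels of Ptgds and Apod, which other tissues also express, was not tested.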

How the data were processed

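RNA-seq libraries were made with a stranded mRNA kit and sequenced as single-ended reads of 101 bases. The authors mapped them to mm10 with TopHat 2.1.1 and calculated FPKM (equal to RPKM for single-ended reads) with Cufflinks 2.2.1, and deposited a table of FPKM and of normalized counts, a signal already scaled between libraries. The gene annotation, the strand setting and the counting of multiply mapped reads were not given in the sources used. Low normalized counts were whole multiples of 1 step per library for 98.6% to 98.9% of values (within 0.02), which gave the estimated reads. limma 3.58.1 in R 4.3.3 fitted 3 group means to log2(FPKM + 1) of all 9 libraries with a mean-variance trend. On simulated data for Nicol-/- against Nicol+/-, the script was checked before use. The members, the gene lists and the rule for named genes were chosen with earlier results of these data known. All members are named, at most 4 genes per list (the smallest p in Nicol-/-, with any that moved against them), neighbours within 250 kb, and 3 genes of like profile per member. The lists cover other lipocalins, their receptors, prostaglandins, the acute phase, iron, and markers of 12 cell types. Same-numbered Nicol+/- and Nicol-/- libraries deviated together (correlations 0.194, 0.103 and 0.243 across genes), which the labels do not explain. A block for the number changed the call of 0 members in Nicol-/-, and gave 1486 lower and 1305 higher genes in place of 1628 and 1221 over 9 libraries, and 981 and 749 in place of 1083 and 649 over the 6 compared. In Ros1-/- such correlations were -0.0439 to 0.0967. The alternatives changed the pseudocount, the filter, the scaling, the variance model or the libraries in the fit.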

Additional observations from a re-analysis of the deposited data

Results flagged for a closer look

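Mup5, a major urinary protein gene among the other lipocalins, was the 1 gene called between the knockouts among the 15 tested lipocalin genes (the 9 members and 6 of the list). Of all tested genes, 1.15% were called lower and 0.403% higher in that comparison. Mup6, outside the list, was not called (limma adjusted p = 0.335). Mup5 had 1.77, 2.13 and 2.96 FPKM in Nicol+/- and 2.58, 3.65 and 6.93 in Nicol-/-. Each Ros1-/- library listed it at 0, and it was also called lower there than in Nicol+/- (limma adjusted p = 0.0021). The fitted difference of Ros1-/- from Nicol-/- was -2.35 on the log2(FPKM + 1) scale (limma adjusted p = 0.009075), which rests on the pseudocount and is no measure of size. Mup genes have close paralogs, so the level of this one is uncertain.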

How the results depend on the processing

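The calls of Lcn8, Lcn9, Lcn10 and Lcn2 as lower held in both knockouts under every alternative that could test them. Lcn9 could not be tested with both replicates 3 of Nicol left out (chosen after seeing the data), because it then missed the filter. The planned count test was not run, because the normalized counts did not all convert to whole reads. In Nicol-/- 0 members were higher in the main fit, and leaving out single libraries gave 0 to 2. In Ros1-/- 1 member was higher. Without the filter 0 were, with the 6 libraries 2, with the replicate block over 9 libraries (Lcn5, adjusted p = 0.0285) or over 6 (Ptgds) 2, with both replicates 3 left out 2 (Lcn5, adjusted p = 0.0425), and with single libraries left out 0 to 2. For Ros1-/- against Nicol-/- 0 became 1 (Apod) with both replicates 3 left out, and 0 to 1 with single libraries left out. Adjusted p over the alternatives ran from 0.0285 to 0.819 for Lcn5, 0.0128 to 0.284 for Ptgds and 0.0017 to 0.0677 for Apod in Ros1-/-.

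Over all tested genes in Nicol-/-, 1628 were lower and 1221 higher. The counts were 672 higher without the filter, 1083 and 649 with 6 libraries, 981 and 749 with the replicate block over them, 936 and 557 with both replicates 3 left out, and 842 to 1538 and 495 to 1068 with single libraries left out. In Ros1-/- (1810 and 1299) they were 794 higher without the filter, and 1008 to 2150 and 549 to 1750 with single libraries left out. Between the knockouts (157 and 55) they were 48 and 29 without the filter, 60 and 24 with 6 libraries, 7 and 8 with the block over them, 103 higher with both replicates 3 left out, and 3 to 180 and 2 to 111 with single libraries left out. Directions that turned were all between the knockouts and uncalled. Ptgds was at -0.0135 under quantile normalization. With both replicates 3 left out Lcn6 was at 0.12, Lcn8 at 0.13 and Lcn12 at 0.0816. With single libraries left out Lcn6 ran from -0.33 to 0.12, Lcn8 from -0.56 to 0.13, Lcn12 from -0.32 to 0.0816 and Ptgds from -0.23 to 0.72. The share of the members in Ros1-/- was below Nicol+/- (-0.837 points), and without Lcn8 and Lcn9 it was 0.129 points above. The cause of these changes was not tested, except that fewer libraries or more genes enter some fits. Depth limits Lcn8 and Lcn9 in the knockouts, which rest on few reads.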
